A study of Ovis aries with 12 samples.

Results

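The comparison described here is that of longissimus dorsi muscle, the long loin muscle of the back, from Tan sheep fed 2% succinate (the diet named SUC3) with that from Tan sheep fed 0.5% succinate (SUC1). It rests on 6 of the 12 libraries of the study, which were chosen by their diet labels: 3 SUC3 libraries and 3 SUC1 libraries. The other 6 libraries came from sheep on 1% succinate (SUC2) and on the basal diet with no added succinate (control). They enter the low-count filter, the scaling of the counts and the estimate of the spread, and some of their values are given beside those of SUC3 and SUC1. All diets shared the basal diet, and all sheep were of the Tan breed, were 5 months old at the start, and were on trial for 60 days after 10 days of pretrial feeding. No genetic change or other agent is named. The labels describe 9 sheep per diet and 36 in all, but 3 libraries per diet; whether a library is 1 sheep or a pool of sheep is not given, and the p-values therefore cover only the variation among these libraries, which may be technical.

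Succinate is made and consumed in the tricarboxylic acid cycle, where succinate dehydrogenase oxidises it to fumarate and passes the electrons to the respiratory chain. Outside cells it can bind the receptor SUCNR1, and in mice dietary succinate has been linked to more slow, oxidative muscle fibres. Fibre type in muscle is read from the myosin heavy chains: MYH7 marks slow fibres, MYH2 and MYH1 mark fast oxidative and intermediate fibres, and MYH4 marks the fastest glycolytic fibres of rodents. The comparison of the highest with the lowest succinate dose asks whether these genes, or any others, differed between the doses.

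The 6 libraries were of even depth. The deposited counts summed to between 17085701 and 17465992 per library in SUC3 and between 15742428 and 17307809 in SUC1, a difference that did not pass (exact permutation test, two-sided p = 0.2; the smallest p that 3 against 3 libraries allow is 0.1). Mitochondrially encoded genes held 9.48% to 12.6% of the counts in SUC3 and 7.48% to 15.6% in SUC1. The libraries were muscle by their markers. The 15 genes of muscle fibre identity, among them CKM, ACTA1, TTN and NEB, were summed in each library. They held between 188700 and 199900 CPM in SUC3 and between 174600 and 211800 CPM in SUC1. In sums over a gene list, here and below, CPM are counts scaled to the library total without TMM. For single genes, CPM are counts scaled to a common library size by the TMM method. SUC3 replicate 2 stood apart in single genes. In it, 77 of 12127 genes (0.635%) were at least 3-fold above both other SUC3 libraries, against 17 to 23 such genes in each of the other 5 libraries. Among the 77, picked after their values were seen, were the immediate early genes FOS (36.9 CPM, against 3.58 and 5.69 CPM in SUC3 replicates 1 and 3) and ATF3 (99.4 CPM, against 19.8 and 13.8 CPM), the haem-degrading enzyme HMOX1 (186 CPM, against 14.5 and 22.6 CPM), and COMP, COL22A1 and TNMD, genes of tendon and of its junction with muscle, at 6.22, 7.17 and 3.64 CPM in that library.

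No gene passed the test. Of 13319 genes tested with edgeR's quasi-likelihood test, 0 (0.0%) had a Benjamini-Hochberg adjusted p under 0.05 in SUC3 against SUC1, and the smallest adjusted p was 0.22. An unadjusted p under 0.05 was reached by 974 genes (7.31%), of which 580 were higher in SUC3 (4.35%) and 394 lower (2.96%). DESeq2 called 69 genes of the 12014 it adjusted (0.574%), 39 higher and 30 lower, and limma on log2 FPKM called 0, with 970 genes at an unadjusted p under 0.05. All 3 SUC3 libraries lay above all 3 SUC1 libraries in 795 genes (5.97%) and under them in 807 genes (6.06%). TMM scaling centres the genes, and after it 49.8% had a positive log2 fold change and the median was -0.001; in the alternatives 6024 to 8422 genes were positive and the median lay between -0.013 and 0.091. The 95% confidence interval reached, at the median, 0.592 log2 units to either side of the estimate. That interval goes with an unadjusted p of 0.05, and differences larger than 0.592 also failed the adjusted test. Over 12127 genes, a SUC3 and a SUC1 library differed by a root-mean-square of 0.586 log2 units on average, while 2 SUC3 libraries differed by 0.592 and 2 SUC1 libraries by 0.532, so libraries of the 2 diets lay no farther apart than the SUC3 libraries did from each other. Every value given below is therefore a description of genes that did not pass the edgeR test. This includes the genes said to be called by DESeq2, which is 1 of the alternatives.

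The gene with the smallest p was DACH1, which encodes a nuclear corepressor of the Dachshund family. DACH1 had 16.5, 5.49 and 10.2 CPM in SUC3 libraries 1 to 3, against 2.04, 2.03 and 0.826 CPM in SUC1 libraries 1 to 3. The lowest SUC3 library was above the highest SUC1 library, and the difference was 2.70 ± 0.41 log2 units (SE; edgeR adjusted p = 0.22). DACH1 lies on chromosome 10, at 46698429 to 47166392 in the deposited table, for which no source used here names a sheep genome build. Its mean was 3.77 CPM in SUC2 and 4.72 CPM in control libraries, between those of SUC3 and SUC1. Without SUC3 replicate 2 DACH1 was called, with a log2 fold change of 3.02.

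CDH11, a cadherin that joins mesenchymal cells, came next among the genes higher in SUC3. CDH11 had 9.62, 8.35 and 11.4 CPM in SUC3 and 2.82, 4.67 and 3.72 CPM in SUC1, a log2 difference of 1.39 ± 0.25 (edgeR adjusted p = 0.287). BHLHE41, a repressor that acts in the circadian clock and in muscle cells, had 37.0, 34.7 and 15.9 CPM in SUC3 and 9.31, 13.0 and 7.92 CPM in SUC1. Its 3 SUC3 libraries all lay above its SUC1 libraries, by 1.53 ± 0.29 log2 units (edgeR adjusted p = 0.287). It was called without SUC3 replicate 3, at 1.83, as was SYNJ2, a phosphoinositide phosphatase named after its values were seen. With all libraries SYNJ2 was called by DESeq2. BHLHE41 lies within the span of SSPN on the opposite strand, and since no source used here states that counting used strand, reads of the 2 genes cannot be told apart.

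The other genes of the 10 with the smallest p among those higher in SUC3 fell into signalling, channels and matrix. APAF1, the scaffold of the apoptosome, had 12.3, 12.8 and 13.5 CPM in SUC3 and 4.99, 8.18 and 5.78 CPM in SUC1, a log2 fold change of 1.02 ± 0.20. CAMKK2, a calcium-dependent kinase that can activate AMPK, had 29.1, 27.5 and 25.3 CPM in SUC3 and 12.1, 12.2 and 15.97 CPM in SUC1, a log2 fold change of 1.03 ± 0.22. Both were narrow in SUC3, and neither overlapped between the diets. MMP14, a protease of the cell surface that cleaves collagen, had 17.4, 12.8 and 13.8 CPM in SUC3 and 7.81, 8.18 and 4.34 CPM in SUC1 (1.11 ± 0.24). The potassium channel genes KCNJ2, which sets the resting potential, and KCNH2, which carries a delayed rectifier current in the heart, differed by 1.24 ± 0.26 and 1.44 ± 0.31 log2 units. NOD1, a sensor of bacterial cell wall peptides, differed by 1.29 ± 0.27, and KIFC3, a motor that walks to the minus end of microtubules, by 1.24 ± 0.27. All 10 had edgeR adjusted p between 0.22 and 0.311.

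Among the 10 genes with the smallest p in the lower direction, HEXIM1 was first. HEXIM1 holds the elongation kinase P-TEFb inactive, and it had 74.5, 82.0 and 81.2 CPM in SUC3 against 212, 150 and 151 CPM in SUC1, a log2 difference of -1.11 ± 0.20 (edgeR adjusted p = 0.287). The SUC3 libraries lay close to each other, and all were under the SUC1 libraries. PGM2L1, which makes glucose 1,6-bisphosphate, the cofactor of phosphoglucomutase, had 88.1, 71.4 and 98.5 CPM in SUC3 and 197, 190 and 182 CPM in SUC1 (-1.14 ± 0.21). TTLL7, an enzyme that adds glutamate chains to tubulin, had 20.7, 20.6 and 22.9 CPM in SUC3 and 49.8, 38.9 and 32.5 CPM in SUC1 (-0.92 ± 0.17). SERTAD1, a regulator of cyclin-dependent kinase activity and E2F transcription, had the largest difference of the 10, with 4.22, 2.80 and 4.49 CPM in SUC3 and 17.1, 8.05 and 18.9 CPM in SUC1 (-1.93 ± 0.40). None of these 4 genes overlapped between the diets.

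The remaining 6 of the lower genes were ZFX, an X-linked transcription factor (-0.85 ± 0.16), C5H5orf15 (-0.81 ± 0.16), the protocadherin PCDH7 (-1.48 ± 0.32), the repressor KLF12 (-0.95 ± 0.21), REEP1, which shapes the endoplasmic reticulum (-0.72 ± 0.16), and the ribosomal protein gene RPL6. RPL6 had 121, 113 and 173 CPM in SUC3 and 274, 311 and 405 CPM in SUC1 (-1.29 ± 0.27), with edgeR adjusted p = 0.311. RPL6 has near-identical pseudogenes and its count is uncertain; how reads were assigned between them was not tested. All 20 genes named by this ranking were without overlap, a direction that the ranking itself favours, and all 20 were among the 69 called by DESeq2. The SUC2 mean lay between the SUC3 and SUC1 means in 15 of the 20 genes and the control mean in 16, against 29.9% and 29.5% of all genes tested. The 20 were chosen for a wide gap between SUC3 and SUC1, and a wide gap holds more means, so nothing is read from these counts. The plot of the 20 genes by library shows their values.

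**Figure D1:**
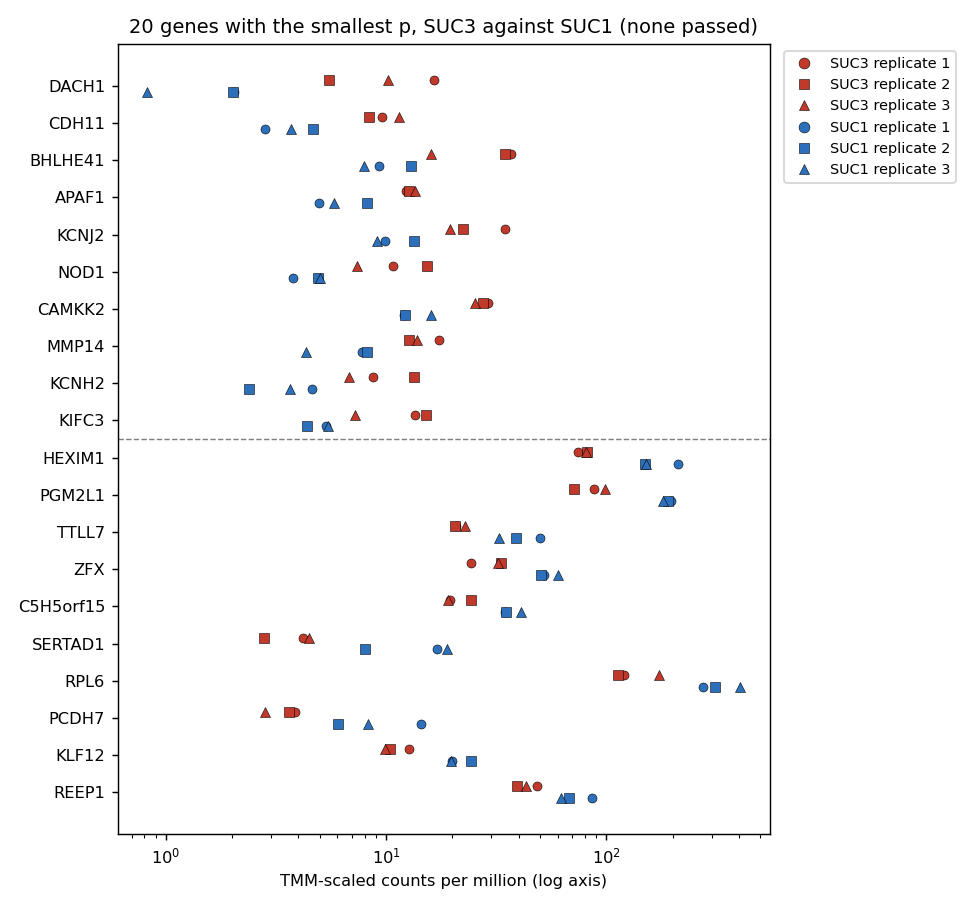
TMM-scaled CPM (log axis) of the 20 genes with the smallest p, 10 higher in SUC3 above the dashed line and 10 lower in SUC3 below it; each point is 1 library, SUC3 in red and SUC1 in blue, with the replicate number given by the shape. The SUC3 and SUC1 points of each gene do not overlap, and none of the genes passed an adjusted p of 0.05 in edgeR.

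Myosin heavy chain genes overlapped between the diets. MYH7, the slow myosin, had 5949, 5532 and 5136 CPM in SUC3 and 6297, 2861 and 6620 CPM in SUC1, a log2 fold change of 0.07 with a 95% confidence interval of -0.90 to 1.05. MYH2, the fast oxidative myosin, had 21380, 12850 and 23190 CPM in SUC3 and 8979, 15010 and 15660 CPM in SUC1 (0.53 ± 0.39), and MYH1 had 25790, 34440 and 35430 CPM in SUC3 and 52980, 37150 and 32280 CPM in SUC1 (-0.36 ± 0.27). The libraries of the diets overlapped in each of the 3 genes. MYH4 was near absent, at 8.03 ± 2.80 CPM in SUC3 and 8.14 ± 3.44 CPM in SUC1 (SD, n = 3 each). On the length-corrected FPKM scale, MYH1 made up 56.3% ± 8.35 of the summed level of these 4 myosins in SUC3 and 67.9% ± 9.25 in SUC1 (exact permutation test, two-sided p = 0.2), MYH2 33.7% ± 8.30 in SUC3 and 23.1% ± 8.60 in SUC1 (p = 0.3 by the same exact test), and MYH7 10.1% ± 1.67 in SUC3 and 8.98% ± 3.53 in SUC1 (p = 0.7 by the same exact test; SD, n = 3 each). The 95% interval of MYH7 held differences in either direction, so no direction is read from it.

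The wider fibre type lists leaned apart a little. In the slow-twitch list 13 of 20 genes had a positive log2 fold change, with a median of 0.092. At an unadjusted p under 0.05, 1 member was higher, CASQ2, where 4.35% of all genes were. CASQ2, the calcium-binding protein of slow and heart muscle reticulum, had 36.3, 28.5 and 42.4 CPM in SUC3 and 14.3, 20.9 and 22.7 CPM in SUC1 (0.89 ± 0.33, edgeR adjusted p = 0.572). ANKRD2, a stretch-responsive protein of slow fibres, averaged 71.8 ± 13.6 CPM in SUC3 and 31.6 ± 19.4 CPM in SUC1 (SD, n = 3 each). In the fast-twitch list 2 of 18 genes were positive, with a median of -0.247. ACTN3, the alpha-actinin of fast fibres, averaged 3211 ± 399 CPM in SUC3 and 4340 ± 897 CPM in SUC1, and MYOZ3, a Z-disc protein of fast fibres, 285 ± 136 CPM in SUC3 and 441 ± 48.4 CPM in SUC1 (SD, n = 3 each). The slow median turned negative without SUC1 replicate 2 and, at -0.056, without SUC3 replicate 3, and the fast median stayed below 0 in all alternatives, between -0.354 and -0.136.

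Glycogen and glycolysis genes were mostly at lower counts in SUC3. Of 31 genes 7 were positive, and the median was -0.273, against -0.001 over all genes; 2 were lower and 1 was higher at an unadjusted p under 0.05 (2.96% and 4.35% of all genes). The SUC3 libraries lay under all SUC1 libraries in 7 members and above them in 2 (6.06% and 5.97% of all genes). PFKFB3, which makes the activator of phosphofructokinase fructose 2,6-bisphosphate, had 83.3, 242 and 224 CPM in SUC3 and 1562, 341 and 601 CPM in SUC1 (-2.19 ± 0.65, edgeR adjusted p = 0.474). The SUC1 libraries of PFKFB3 ranged widely, with replicate 1 highest. PPP1R3A, which brings phosphatase to glycogen, had 566, 627 and 799 CPM in SUC3 and 1045, 1069 and 781 CPM in SUC1 (-0.54 ± 0.25). HK2, the insulin-responsive hexokinase, had 22.3, 54.4 and 5.75 CPM in SUC3 and 14.5, 11.6 and 11.6 CPM in SUC1, so that its SUC3 libraries spanned the SUC1 range. The main glycolytic genes LDHA (-0.24 ± 0.24) and PFKM (-0.15 ± 0.20, with SENP1 on the opposite strand in its span) differed by no more than their error. The list median stayed negative in all alternatives, between -0.388 and -0.176.

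Genes of fatty acid uptake and oxidation had 5 of 32 members higher in SUC3 at an unadjusted p under 0.05 and 0 lower, against 4.35% higher and 2.96% lower over all genes. CD36, the fatty acid transporter of the fibre membrane, had 354, 286 and 367 CPM in SUC3 and 129, 159 and 254 CPM in SUC1, a log2 difference of 0.89 ± 0.23 (edgeR adjusted p = 0.393), and it was called by DESeq2. CPT1B, which carries long-chain acyl groups into mitochondria in muscle, had 86.3, 96.9 and 90.3 CPM in SUC3 and 57.1, 56.4 and 72.4 CPM in SUC1 (0.56 ± 0.15, edgeR adjusted p = 0.454). The SUC3 libraries of both genes lay above all SUC1 libraries. HADHB and ECI1, enzymes of beta-oxidation, averaged 363 ± 39.3 and 39.7 ± 7.62 CPM in SUC3, against 252 ± 38.02 and 24.7 ± 6.45 CPM in SUC1 (SD, n = 3 each), and MLYCD, which removes the CPT1 inhibitor malonyl-CoA and was named after its values were seen, had 58.1 ± 1.91 CPM in SUC3 and 46.6 ± 3.35 CPM in SUC1 (SD, n = 3 each). Over the whole list, these 5 genes included, 19 of 32 were positive and the median was 0.057, which was -0.006 without SUC3 replicate 2. CD36 is also made by endothelial cells and adipocytes, whose marker levels are given further on, and their part in the value was not tested. In bulk muscle, more cells of a type and more RNA per cell cannot be told apart.

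Desaturases and lipid synthesis genes were mixed. FADS1 and FADS2, the delta-5 and delta-6 desaturases of polyunsaturated fatty acids, had 8.19 ± 2.26 and 16.8 ± 5.37 CPM in SUC3, against 4.39 ± 1.11 and 10.3 ± 0.765 CPM in SUC1 (SD, n = 3 each). FDPS, of the isoprenoid pathway, and ELOVL5, which elongates the products of FADS2, had 5.99 ± 0.363 and 7.32 ± 1.54 CPM in SUC3, against 8.42 ± 0.683 and 10.6 ± 1.18 CPM in SUC1 (SD, n = 3 each). These 4 genes, 2 higher and 2 lower, were the only members of the 27 in this list at an unadjusted p under 0.05. Over all genes 4.35% were higher and 2.96% lower at that p. The SUC3 and SUC1 libraries did not overlap in any of the 4 genes. In the whole list SUC3 lay above SUC1 without overlap in 2 members and under it in 3 (5.97% and 6.06% of all genes). The edgeR adjusted p values were 0.49 for FADS1, 0.615 for FADS2, 0.525 for FDPS and 0.652 for ELOVL5. Of the adipocyte markers 9 of 14 were positive, with a median of 0.209 that turned to -0.488 without SUC3 replicate 2, and their summed level ranged from 257 to 634 CPM in SUC3 and from 348 to 395 CPM in SUC1.

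The tested genes of succinate handling and the tricarboxylic acid cycle overlapped between the diets, but for PDK4. Over all genes, 5.97% lay higher in SUC3 without overlap and 6.06% lower. Of these 29 genes 13 were positive, the median was -0.026, and 0 reached an unadjusted p under 0.05. SDHA and SDHB, the catalytic subunits of succinate dehydrogenase, averaged 642 ± 161 and 363 ± 31.9 CPM in SUC3, against 660 ± 103 and 349 ± 42.9 CPM in SUC1 (SD, n = 3 each); the log2 differences were -0.04, with a 95% interval of -0.61 to 0.53, and 0.06, with an interval of -0.32 to 0.44. SUCLG2, a subunit of the enzyme that forms succinate from succinyl-CoA, averaged 187 ± 29.1 CPM in SUC3 and 224 ± 21.8 CPM in SUC1 (SD, n = 3 each), with overlap. SUCNR1, the succinate receptor, was barely detected, at 0.588, 0.224 and 0.599 CPM in SUC3 and 0.361, 1.11 and 0.482 CPM in SUC1, and a log2 difference anywhere from -1.77 to 0.84 lay within its 95% interval. PDK4, the kinase that shuts pyruvate dehydrogenase, was the member farthest from 0. It had 4100, 7105 and 6531 CPM in SUC3 and 10930, 8820 and 11510 CPM in SUC1, without overlap, and a log2 difference of -0.82 ± 0.38 (edgeR adjusted p = 0.684). PC, pyruvate carboxylase, was at -0.57 ± 0.27 with overlap, and LRFN4 lies on the opposite strand in its span.

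Respiratory chain genes had small differences. Of 65 nuclear genes 17 were positive, the median was -0.065 (0.061 with limma on log2(FPKM + 0.1)), and 0 reached an unadjusted p under 0.05; the gene with the smallest p, NDUFB7, was at -0.41 ± 0.20. The 13 mitochondrially encoded genes had a median of -0.223, which was 0.010 without SUC1 replicate 3. ND1, a core subunit of complex I, had 447, 2144 and 306 CPM in SUC3 and 1713, 6167 and 8048 CPM in SUC1, a log2 difference of -2.46 ± 0.66 (edgeR adjusted p = 0.431), with SUC3 replicate 2 above SUC1 replicate 1. CYTB, of complex III, had 6441, 6210 and 6689 CPM in SUC3 and 5223, 12680 and 15320 CPM in SUC1, and ND2 had 3850, 4930 and 4311 CPM in SUC3 and 4304, 7032 and 10260 CPM in SUC1. In CYTB and ND2, SUC1 replicate 1 was the lowest SUC1 library, and it also had the lowest mitochondrial share of all 6 libraries, 7.48%. ND4L, which overlaps ND4 on the same strand, was at 0.77 ± 0.34. ND1 had 2219 to 2836 CPM in SUC2 and 1984 to 2967 CPM in control libraries, so SUC3 replicates 1 and 3 lay under all of these and SUC1 replicates 2 and 3 above them. How reads were assigned to ND1 could not be checked without the reads.

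**Figure D2:**
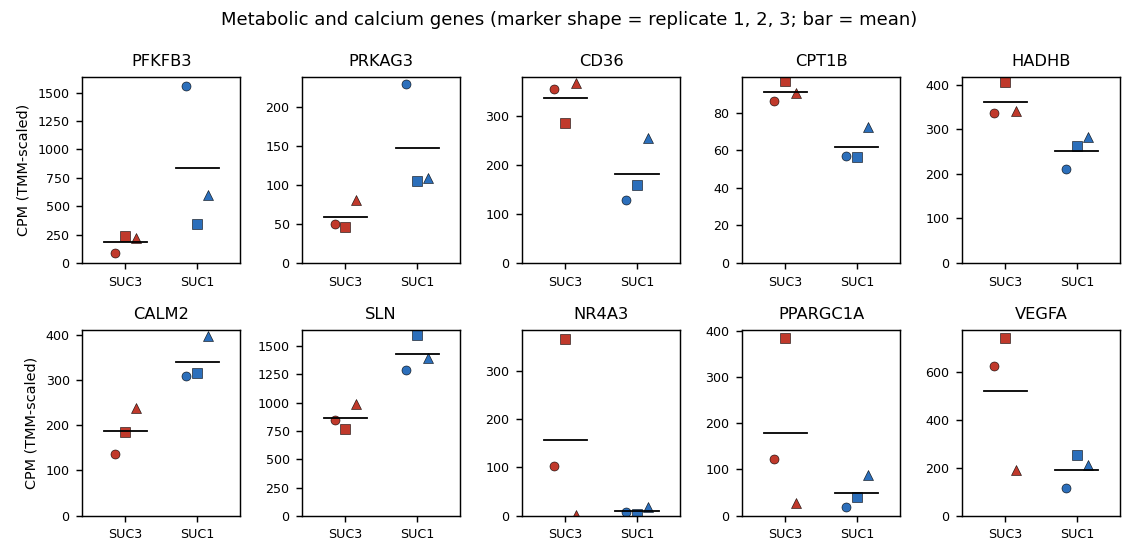
TMM-scaled CPM (linear axes from 0) of 10 metabolic and calcium genes; each point is 1 library, SUC3 in red left of SUC1 in blue, the shape gives replicate 1 (circle), 2 (square) or 3 (triangle), and the bar is the mean of 3. PFKFB3, PRKAG3, CALM2 and SLN lay lower in all SUC3 libraries, CD36, CPT1B and HADHB higher, while NR4A3, PPARGC1A and VEGFA had replicate 2 highest and replicate 3 lowest within SUC3.

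Regulators of energy metabolism differed in some of the libraries or in single subunits. PRKAG3, the gamma subunit of AMPK found in glycolytic muscle, had 49.4, 46.2 and 81.3 CPM in SUC3 and 229, 105 and 109 CPM in SUC1, a log2 difference of -1.33 ± 0.32 without overlap (edgeR adjusted p = 0.353); DESeq2 called it. PRKAG2, the gamma subunit best known in the heart, was at 0.86 ± 0.39 with overlap. PPARGC1A, the coactivator that drives mitochondrial biogenesis, had 123, 383 and 27.2 CPM in SUC3 and 18.5, 39.8 and 87.8 CPM in SUC1, and its log2 difference of 1.87 ± 0.84 was 0.63 without SUC3 replicate 2. VEGFA, the angiogenic growth factor, had 622, 742 and 193 CPM in SUC3 and 114, 252 and 211 CPM in SUC1. NR4A3, an exercise-induced nuclear receptor, had 104, 366 and 1.38 CPM in SUC3 and 7.15, 3.94 and 17.5 CPM in SUC1. In all 3 genes SUC3 replicates 1 and 2 lay above all SUC1 libraries, with replicate 2 the highest. SUC3 replicate 3 was the lowest of the SUC3 libraries and lay inside or under the SUC1 range. The 28 genes of this list had a median of 0.013.

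Calcium handling had 5 of its 31 genes lower and 1 higher at an unadjusted p under 0.05 (2.96% and 4.35% of all genes). The SUC3 libraries lay under all SUC1 libraries in 9 members and above them in 2 (6.06% and 5.97% of all genes). The median of the list was -0.196, and it stayed negative in all alternatives, between -0.307 and -0.077. CALM2, which encodes calmodulin, had 137, 185 and 238 CPM in SUC3 and 309, 316 and 397 CPM in SUC1, a log2 difference of -0.87 ± 0.21 (edgeR adjusted p = 0.353), and DESeq2 called it. CALM3, which encodes the same protein, had 380, 509 and 591 CPM in SUC3 and 1115, 615 and 636 CPM in SUC1 (-0.68 ± 0.26). JPH2, which ties the T-tubule to the reticulum, had 124, 91.1 and 118 CPM in SUC3 and 188, 133 and 150 CPM in SUC1 (-0.50 ± 0.19). None of the 3 genes overlapped between the diets, and neither did SLN, sarcolipin, an inhibitor of the calcium pump, with 845, 765 and 985 CPM in SUC3 and 1290, 1600 and 1390 CPM in SUC1, nor STAC3, which couples excitation to calcium release, with 297, 263 and 338 CPM in SUC3 and 412, 391.9 and 385 CPM in SUC1. SLN and STAC3 were named after their values were seen. Of the 31 genes 9 were positive. Among these NFATC4, a transcription factor activated by calcineurin, was the 1 at an unadjusted p under 0.05. It had 6.62, 5.04 and 3.95 CPM in SUC3 and 2.04, 2.58 and 3.30 CPM in SUC1 (0.98 ± 0.33, edgeR adjusted p = 0.5).

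Satellite cells, the stem cells of muscle, are marked by PAX7, MYF5 and CDH15, and myogenic factors such as MYOD1 are switched on when they commit. MYOD1 had 36.3, 17.0 and 26.8 CPM in SUC3 and 5.23, 14.1 and 4.34 CPM in SUC1, a log2 difference of 1.76 ± 0.44 (edgeR adjusted p = 0.353), and DESeq2 called it. CDH15 had 16.2, 16.9 and 14.9 CPM in SUC3 and 8.47, 8.79 and 9.36 CPM in SUC1 (0.85 ± 0.26), with SLC22A31 on the opposite strand in its span. PAX7 had 6.09, 3.19 and 4.01 CPM in SUC3 and 2.58, 2.34 and 2.07 CPM in SUC1 (0.93 ± 0.37). MYOD1, CDH15 and PAX7 did not overlap between the diets, where 5.97% of all genes lay higher in SUC3 without overlap. The marker MYF5 had 1.55, 3.64 and 1.44 CPM in SUC3 and 1.74, 1.91 and 3.79 CPM in SUC1, with overlap (-0.16 ± 0.54). MYOG, another myogenic factor, was at -0.60 ± 0.46, also with overlap. MYF5 and MYOG were named after their values were seen. MYMK, which encodes a protein needed for myoblast fusion, reached 2.08, 0.896 and 2.28 CPM in SUC3 and 0.961, 0.738 and 0.688 CPM in SUC1, with overlap; it was named after its values were seen. MYF6, the myogenic factor that is most abundant in mature fibres, was on the other side, with 61.2, 105 and 141 CPM in SUC3 and 230, 130 and 179 CPM in SUC1 (-0.82 ± 0.28, edgeR adjusted p = 0.511). Of the 15 genes in the list 7 were positive, with a median of -0.069, which turned positive in 7 alternatives, to 0.276 without SUC1 replicate 3.

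Growth factor genes gave a similar split. MSTN, myostatin, which holds back muscle growth, had 15.7, 16.8 and 23.1 CPM in SUC3 and 53.8, 16.5 and 35.0 CPM in SUC1, a log2 difference of -0.92 ± 0.32 (edgeR adjusted p = 0.513), with SUC1 replicate 2 as low as the SUC3 libraries. FST, follistatin, which binds myostatin, had 5.77, 5.55 and 6.35 CPM in SUC3 and 9.91, 8.92 and 7.43 CPM in SUC1 (-0.57 ± 0.30), without overlap. The means of both the inhibitor and its antagonist were lower in SUC3. GREM1, a BMP antagonist, was at 1.06 ± 0.44 and TGFB3 at -0.84 ± 0.32, each with overlap, and the list of 19 had a median of 0.005. IGF1, the growth-promoting hormone, had 16.2, 19.04 and 31.6 CPM in SUC3 and 10.4, 16.2 and 14.5 CPM in SUC1 (0.70 ± 0.26, edgeR adjusted p = 0.572), where SUC3 replicate 1 was under SUC1 replicate 2. INSR, the insulin receptor, had 85.3, 161 and 64.0 CPM in SUC3 and 56.4, 53.1 and 60.2 CPM in SUC1 (0.87 ± 0.30), and IGFBP4, which binds IGF, was at 0.74 ± 0.27. Of 24 genes of insulin and IGF signalling 15 were positive, and the median of 0.058 was -0.211 without SUC3 replicate 2.

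Of the ubiquitin ligase and autophagy genes 10 of 27 were positive, with a median of -0.032. At an unadjusted p under 0.05, 1 member was lower, the stress-induced mTORC1 inhibitor DDIT4, where 2.96% of all genes were. DDIT4 averaged 114 ± 33.0 CPM in SUC3 and 206 ± 94.4 CPM in SUC1 (SD, n = 3 each). The 32 proteasome genes had 5 positive members and a median of -0.074, which was 0.106 without SUC3 replicate 1, with PSMB6, a catalytic core subunit, at -0.58 ± 0.23.

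The immediate early genes, which are induced within minutes by stretch, exercise, stress or serum, had the median farthest from 0 of all lists with more than 1 tested gene. Of 24 genes 9 were positive and the median was -0.672; 8 were lower and 2 higher at an unadjusted p under 0.05, against 2.96% and 4.35% of all genes. NR4A2, an orphan nuclear receptor, had 7.59, 4.82 and 7.42 CPM in SUC3 and 33.5, 13.8 and 11.3 CPM in SUC1, a log2 difference of -1.57 ± 0.40 (edgeR adjusted p = 0.388). JUN, a subunit of the AP-1 transcription factor, had 105, 184 and 134 CPM in SUC3 and 430, 224 and 330 CPM in SUC1 (-1.22 ± 0.32, edgeR adjusted p = 0.411). Both were without overlap and were called by DESeq2. ZFP36, which speeds the decay of cytokine transcripts, had 12.02, 28.2 and 13.3 CPM in SUC3 and 56.1, 23.5 and 66.4 CPM in SUC1 (-1.45 ± 0.42). Here the highest SUC3 library, replicate 2, was above the lowest SUC1 library. IER3, a regulator of survival signalling, was higher in SUC3, with 21.96, 38.4 and 22.6 CPM against 11.1, 16.2 and 5.51 CPM in SUC1 (1.34 ± 0.40, edgeR adjusted p = 0.474), and NR4A3, described above, was the other.

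The sum over the list did not follow its median. The immediate early genes summed to between 481 and 1503 CPM in SUC3 and between 864 and 1311 CPM in SUC1, with overlap. SUC3 replicate 2 was also the library in which FOS and ATF3 were high. Without SUC3 replicate 2 the list median was -0.918, and without SUC1 replicate 1 it was -0.386; it stayed negative in every alternative. The part of SUC3 replicate 2 and of SUC1 replicate 1 in these values was not tested beyond leaving them out.

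Clock genes included the ranked gene BHLHE41, which was higher in SUC3, and several genes that were lower. PER3, a period repressor, had 8.87, 10.9 and 6.17 CPM in SUC3 and 37.6, 28.2 and 14.3 CPM in SUC1, a log2 difference of -1.63 ± 0.40 without overlap (edgeR adjusted p = 0.353), and DESeq2 called it. NFIL3, a repressor of D-box genes, had 15.3, 14.6 and 19.2 CPM in SUC3 and 26.9, 19.7 and 32.8 CPM in SUC1 (-0.69 ± 0.22), also without overlap. PER2 had 20.7, 39.0 and 14.7 CPM in SUC3 and 65.6, 38.1 and 37.9 CPM in SUC1 (-0.93 ± 0.35), and its replicate 2 of SUC3 reached the SUC1 range. In all, 2 of 21 clock genes were higher and 4 lower at an unadjusted p under 0.05, against 4.35% and 2.96% of all genes. The median of -0.162 was 0.047 without SUC1 replicate 1, the library with the highest PER2 and PER3.

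**Figure D3:**
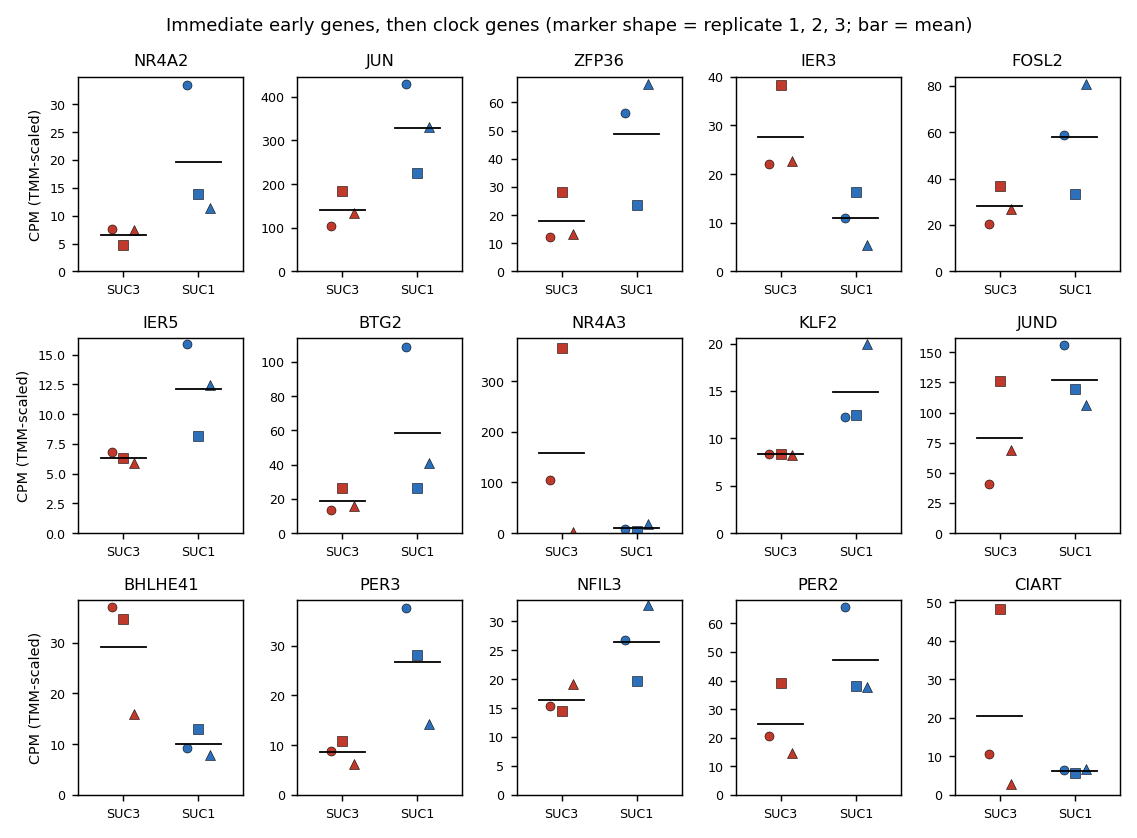
TMM-scaled CPM (linear axes from 0) of 10 immediate early genes (upper 2 lines of panels) and 5 clock genes (lowest line); each point is 1 library, SUC3 in red left of SUC1 in blue, the shape gives replicate 1 (circle), 2 (square) or 3 (triangle), and the bar is the mean of 3. JUN, NR4A2, IER5, KLF2, PER3 and NFIL3 lay lower in all SUC3 libraries, and IER3 and BHLHE41 higher. In NR4A3 and CIART, SUC3 replicates 1 and 2 lay above all SUC1 libraries, with replicate 2 highest, and SUC3 replicate 3 lay under them. Genes plotted here that the text does not describe, among them IER5, KLF2 and CIART, were chosen after their values were seen.

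Stress genes of other kinds had medians nearer that of all genes. Of the heat shock and chaperone genes 25 of 31 were positive, but the median was 0.117 and 0 reached an unadjusted p under 0.05. Without SUC3 replicate 2 the median was 0.022, with 17 positive, and without SUC3 replicate 1 it was 0.232. HSPH1, a chaperone that aids disaggregation, was at 0.65 ± 0.33. In the unfolded protein response, XBP1, the transcription factor spliced under endoplasmic reticulum stress, had 19.98, 19.3 and 20.2 CPM in SUC3 and 29.0, 27.8 and 32.2 CPM in SUC1, a log2 difference of -0.58 ± 0.14 (edgeR adjusted p = 0.353). Within each diet the XBP1 libraries were close together and the diets did not overlap, and DESeq2 called it; the list of 26 had a median of 0.021. CHAC1, which degrades glutathione, had 2.56, 9.24 and 0.419 CPM in SUC3 and 0.601, 1.17 and 1.03 CPM in SUC1, with SUC3 replicate 2 highest. Among hypoxia genes, ANKRD37 had 0.641, 0.560 and 0.539 CPM in SUC3 and 2.40, 2.34 and 1.38 CPM in SUC1 (-1.80 ± 0.42, edgeR adjusted p = 0.353) at low counts, with UFSP2 on the opposite strand. DESeq2 called ANKRD37. KDM3A, a histone demethylase, was at -0.40 ± 0.16 without overlap, EGLN3, an oxygen-sensing prolyl hydroxylase, at -0.71 ± 0.29 with overlap, and VEGFA, as above, was on the other side, so the list of 15 had a median of -0.029. Interferon genes were positive in 18 of 21, with a median of 0.119. At an unadjusted p under 0.05, 1 member was higher, IFIT1 (0.94 ± 0.39), where 4.35% of all genes were. Without SUC1 replicate 1 the interferon median was 0.010, with 11 of 21 positive, and without SUC3 replicate 2 it was 0.402.

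Endothelial cells line the capillaries that supply muscle fibres. Of 17 endothelial markers 15 were positive and the median was 0.494; 5 were higher in SUC3 at an unadjusted p under 0.05 and 0 lower (4.35% and 2.96% of all genes). In these 5 all SUC3 libraries lay above all SUC1 libraries, as in 5.97% of all genes. CLDN5, a tight junction protein, had 22.8, 16.8 and 18.1 CPM in SUC3 and 7.09, 12.9 and 7.99 CPM in SUC1, a log2 difference of 1.05 ± 0.25 (edgeR adjusted p = 0.353), and DESeq2 called it. KDR, the VEGF receptor, had 96.9, 50.5 and 57.2 CPM in SUC3 and 22.8, 32.3 and 49.2 CPM in SUC1 (0.97 ± 0.34). ROBO4, a vessel guidance receptor, had 46.0, 14.6 and 18.3 CPM in SUC3 and 12.02, 12.6 and 12.4 CPM in SUC1 (1.09 ± 0.39). In KDR and ROBO4, SUC3 replicate 1 was far above the other 2 SUC3 libraries, as it was in ESAM, an adhesion molecule, with 60.3, 30.6 and 33.2 CPM in SUC3 and 20.1, 25.6 and 29.4 CPM in SUC1, and in EGFL7, a secreted vessel factor, which averaged 47.3 ± 24.0 CPM in SUC3 and 29.5 ± 2.49 CPM in SUC1 (SD, n = 3 each). EGFL7 was named after its values were seen. The markers summed to between 610 and 1212 CPM in SUC3 and between 495 and 658 CPM in SUC1. Without SUC3 replicate 1 the median was 0.135, with 11 of 17 positive and 1 gene at an unadjusted p under 0.05.

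Other cells of muscle were less uniform. NOTCH3, a receptor of pericytes and vessel muscle, had 80.1, 28.4 and 29.3 CPM in SUC3 and 27.5, 18.5 and 19.7 CPM in SUC1 (1.07 ± 0.43, edgeR adjusted p = 0.592), again with SUC3 replicate 1 highest, and the 14 smooth muscle and pericyte markers had a median of 0.073, which was -0.046 without that library. Nerve and Schwann cell markers were positive in 9 of 10, with a median of 0.437, between 0.237 and 1.06 in the alternatives. NGFR, a neurotrophin receptor, had 2.51, 1.23 and 1.86 CPM in SUC3 and 0.240, 0.861 and 0.344 CPM in SUC1 (1.93 ± 0.60), and GFAP, a glial filament, was at 1.32 ± 0.57. NGFR and GFAP are low in every library, and the summed level of the list, 192 to 212 CPM in SUC3 and 123 to 247 CPM in SUC1, overlapped.

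Immune markers leaned the other way, at low levels. Of 17 tested markers 2 were positive, and the median was -0.295. It was -0.634 without SUC1 replicate 3, -0.556 without SUC3 replicate 1 and -0.066 with limma on log2(FPKM + 1), and 1 to 6 markers were positive in the alternatives. MRC1, the mannose receptor of macrophages, had 4.86, 5.32 and 3.77 CPM in SUC3 and 7.75, 8.79 and 6.75 CPM in SUC1 (-0.74 ± 0.33, edgeR adjusted p = 0.663), without overlap. C1QA, a complement gene of macrophages, averaged 2.27 ± 0.609 CPM in SUC3 and 3.97 ± 1.30 CPM in SUC1 (SD, n = 3 each), and CSF1R, the receptor that sustains macrophages, 4.92 ± 0.771 CPM in SUC3 and 7.22 ± 2.11 CPM in SUC1 (SD, n = 3 each). Both overlapped between the diets, and the summed level of the list was 50.7 to 59.6 CPM in SUC3 and 46.9 to 75.2 CPM in SUC1. Red blood cell RNA was close to absent in both diets, HBB being at most 1.44 CPM in SUC3 and 1.17 CPM in SUC1.

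**Figure D4:**
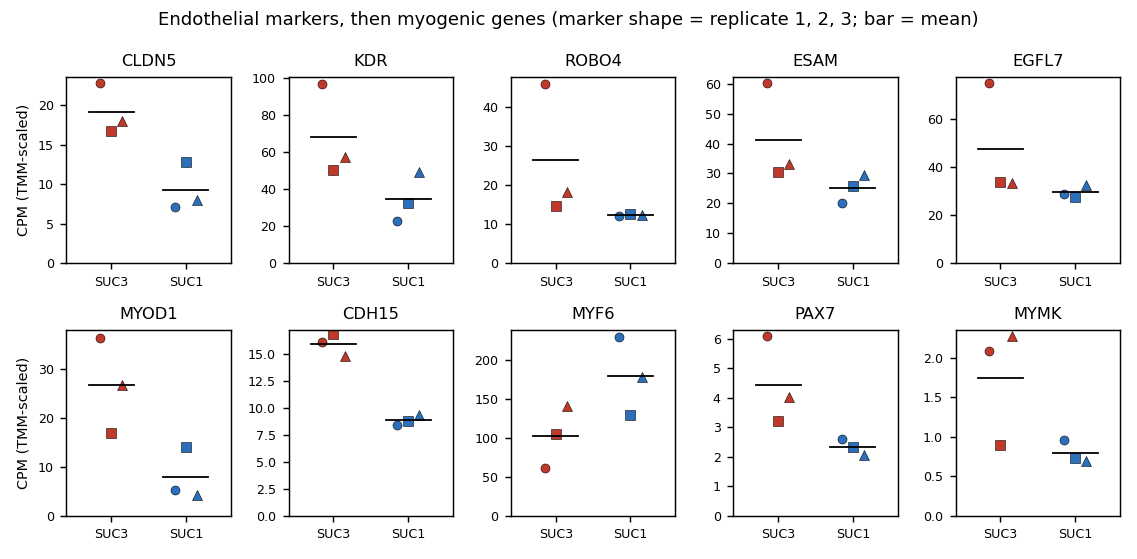
TMM-scaled CPM (linear axes from 0) of 5 endothelial markers (upper line of panels) and 5 myogenic genes (lower line); each point is 1 library, SUC3 in red left of SUC1 in blue, the shape gives replicate 1 (circle), 2 (square) or 3 (triangle), and the bar is the mean of 3. SUC3 replicate 1 was highest in each endothelial panel, and MYOD1, CDH15 and PAX7 lay higher in all SUC3 libraries than in any SUC1 library.

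Matrix, cytoskeleton and ribosomal genes were near the median of all genes. The 39 matrix and fibroblast genes had a median of -0.072. MMP14 alone was higher at an unadjusted p under 0.05, where 4.35% of all genes were. COL4A1, of basement membranes, averaged 463 ± 213 CPM in SUC3 and 287 ± 47.6 CPM in SUC1 (SD, n = 3 each). MYH10, a non-muscle myosin, had 84.2, 79.9 and 65.6 CPM in SUC3 and 41.0, 40.7 and 49.8 CPM in SUC1, a log2 difference of 0.80 ± 0.22 (edgeR adjusted p = 0.455). Its diets did not overlap, and nor did those of TPM4, a non-muscle tropomyosin on the other side, with 62.4, 58.7 and 56.9 CPM in SUC3 and 83.5, 74.5 and 91.1 CPM in SUC1 (-0.49 ± 0.16). TUBB6, a tubulin, was at -0.54 ± 0.23 with overlap, and the 25 cytoskeleton genes had a median of -0.081. Of 76 cytosolic ribosomal protein genes 8 were positive, but their median of -0.129 was 0.010 without SUC3 replicate 1. Cell cycle genes had a median of 0.151, with MKI67, a proliferation marker, at 1.19 ± 0.57 and PCNA, the sliding clamp of replication, at -0.45 ± 0.22.

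**Figure D5:**
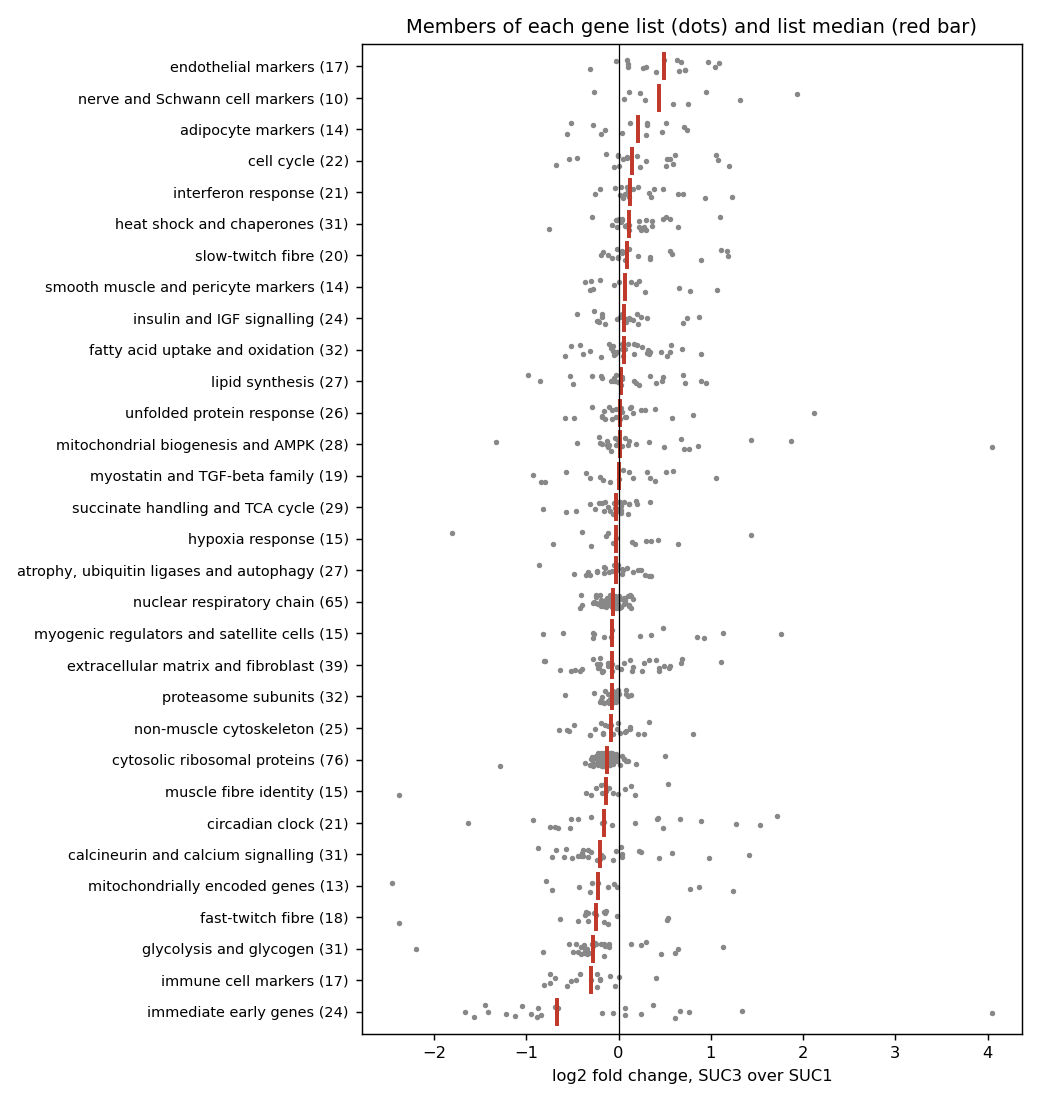
Log2 fold change of SUC3 over SUC1 (horizontal axis) for the tested members of 31 gene lists; each grey dot is 1 gene, the red bar is the list median, and the number of genes is in brackets. The medians run from -0.672 in immediate early genes to 0.494 in endothelial markers, and the median over all genes tested was -0.001.

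The sign of the list medians was not firm where they were small. Under at least 1 alternative the median turned sign in 21 of the 32 lists. It kept its sign in the other 11, which were the lists of endothelial, nerve, immune and erythroid markers (HBB alone), fast-twitch, glycolysis, calcium, immediate early, heat shock, interferon and cell cycle genes; the heat shock and interferon medians came as near 0 as 0.022 and 0.010.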

How the data were processed

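The aligner and counter are not named in the labels or headers. The authors deposited 1 table of read counts and FPKM (fragments scaled to gene length and depth) for 21257 sheep genes in 12 libraries, per the file headers; the deposited FPKM equal the deposited counts scaled by length and library total. The submitters' processing notes name mouse genome builds only, and no sheep build is given. Symbols came from the table, from RefSeq (ARS-UI_Ramb_v3.0, matched by GeneID: 20874 matched, which gave 437 placeholder names and the chromosomes) or, for 27 genes, from a unique description in the table. Positions are those of the deposited table.

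Counts were tested with edgeR 4.0.16 in R 4.3.3 (TMM, filterByExpr, quasi-likelihood, contrast SUC3 minus SUC1 in a fit of 12 libraries with diet as the factor and 8 residual degrees of freedom), adjusted by Benjamini-Hochberg over 13319 genes, at a threshold of 0.05. The script was tested on simulated data. CPM of single genes are counts scaled to a common TMM library size. Sums over gene lists are scaled to the library total without TMM, and on that scale 3 counts correspond to at most 0.191 CPM. Errors of log2 differences are standard errors. Single values of libraries were compared by exact permutation. Alternatives were other scalings (RLE, upper quartile), no low-count filter or a mean of at least 1 CPM, DESeq2 1.42.0, limma 3.58.1 on log2(FPKM + 0.1) and log2(FPKM + 1), the 6 libraries alone, a replicate block, and leaving out each library.

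Named genes are up to 10 per direction by smallest p with at least 1 CPM, a panel of 14 genes, and up to 4 genes by smallest p of each of 32 lists; others are said to be named after their values were seen. The lists get no test. The comparison and lists were chosen with earlier results of these data known. A few members of the lists are counted but not reported here by name.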

Additional observations from a re-analysis of the deposited data

How the results depend on the processing

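The count of genes at an adjusted p under 0.05 was 0 with RLE and upper-quartile scaling, without the filter, with a mean of at least 1 CPM, with limma at both pseudocounts, with 6 libraries only and with the replicate block. DESeq2 called 69. Leaving out 1 library gave 0 to 2: 1 (DACH1) without SUC3 replicate 2, 2 without SUC3 replicate 3, and 0 without any other. Genes at an unadjusted p under 0.05 numbered 715 without SUC3 replicate 1 and 722 without SUC1 replicate 1, against 974 with all libraries. Their split was 580 higher and 394 lower with TMM, 587 and 390 with RLE, and 654 and 334 with upper-quartile scaling. Limma on log2(FPKM + 0.1), which also changes the unit and the test, gave 765 and 205, with a median of all genes of 0.091.

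Of 161 gene values, 155 kept their direction in every alternative that gave a value, which was 21 alternatives for all but 5 genes of the 161 and 20 for those 5. The other 6 were genes near 0 or at low counts. MYH4 was 0.103 and 0.054 in the FPKM fits, and SDHA 0.048 in both. When 1 library was left out, the log2 fold changes ranged from -0.339 to 0.353 for MYH4, from -0.258 to 0.098 for SDHA, from -0.222 to 0.275 for MYH7, from -0.757 to 0.16 for SUCNR1, from -0.044 to 0.125 for SDHB and from -3.388 to 0.761 for PVALB. The cause was not tested.

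Replicate numbers are shared by the diets, but they did not pair the libraries: same-numbered SUC3 and SUC1 libraries had deviations correlated at 0.022, 0.046 and -0.109, and not every library correlated best with its own number. With the replicate block 0 genes were called and 970 had an unadjusted p under 0.05. With 3 libraries per diet, differences under about 0.592 log2 units were within the interval of a typical gene.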
